A study of Mus musculus with 3 samples.

Results

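The semaphorins, ephrins, slits and netrins are secreted or surface-bound guidance cues, and together with their receptors they form the gene families described here in the utero-tubular junction, the narrow passage from the mouse uterus to the oviduct. Probes were taken when the array's gene name began with Sema, Plxn, Nrp, Efn, Eph, Slit, Robo or Ntn followed by a family letter or a number. This gave 115 probes for 62 genes, of 41174 probes and 27962 gene names on the array. Ntn5 is printed on the array under an older name and was added through its sequence accession, which makes 116 probes and 63 genes, and it is left out of all counts over the 62. The array's Ntn2l is the gene now called Ntn3.

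Expression was measured on 3 single-colour Agilent arrays, each holding total RNA pooled from 10 adult CD-1 females in estrus and labelled with Cy3. The not mated pool came from females kept without a male, and it is the control for both matings. The vasectomized-mated pool came from females mated with vasectomized males, whose ejaculate holds seminal fluid without sperm, and the normal-mated pool came from females mated with normal males. Comparing the 3 pools asks what mating and what sperm add in this tissue. The time from mating to collection was not given in the sources used here. With 1 pool and 1 array per group there is no spread between animals, so no p-value or error is given and a difference describes these pools only.

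Semaphorins signal through plexins, and the secreted class 3 semaphorins do so mostly with a neuropilin as co-receptor. Ephrins sit on the surface of one cell and bind Eph receptor tyrosine kinases on its neighbour, with signals running into both cells, while slits bind robo receptors and netrins bind DCC, neogenin and UNC5 receptors. These cues were found as steering signals for growing axons, and outside the nervous system they act in vessel growth, in the movement of leukocytes and in the sorting and adhesion of epithelial cells.

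Levels are log2 of the processed signal minus the array's 75th percentile, so 0 is the 75th percentile of that array. A level compares 1 probe across the 3 arrays and does not rank genes, since probes differ in brightness. Of the 62 genes, 52 were well above background on all 3 arrays (83.9%, against 62.0% of all genes), 7 on 1 or 2 arrays and 3 on none. A gene well above background on only 1 of the compared arrays has a bound, written as at least N-fold, and a difference is counted at 2-fold.

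The vasectomized-mated array stood apart from the other two. Its 75th percentile signal was 294.6, while those of the not mated and normal-mated arrays were 873.7 and 708.4, and its spike-in controls averaged 10354.4 against 4639.8 and 5359.2. Scaling on the spike-ins instead of the 75th percentile moved the median log2 ratio of all genes by -0.53 for normal mating, by -2.79 for vasectomized mating and by 2.21 between the matings. Every difference that involves the vasectomized-mated array is therefore relative to the bulk of genes on it, and with spike-in scaling 0 of the 57 compared guidance genes were at least 2-fold higher there than on the not mated array. Probes of the same gene also parted more often on this array. Of guidance genes with several compared probes, 15 of 27 had probes over 2-fold apart for vasectomized mating (55.6%, all genes 53.9%), against 4 of 28 for normal mating (14.3%, all genes 14.2%). The ratios of normal-mated to not mated take no values from this array and are given first. The array still enters the choice of each gene's probe, which rests on the mean over the 3 arrays.

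Marker genes of several cell types differed between the pools as well. The 10 endothelial markers gave 7 genes lower by 2-fold or more and 0 higher after normal mating, and 4 lower and 1 higher after vasectomized mating. The list's mean level was 1.03 (not mated), 0.45 (vasectomized-mated) and -0.46 (normal-mated). Of 8 stromal fibroblast markers, 4 were at least 2-fold lower after normal mating and 0 higher, but 0 were lower and 3 higher after vasectomized mating. Of 8 general epithelial markers, 5 were at least 2-fold higher and 0 lower after normal mating, as were 5 of 6 ciliated markers. After vasectomized mating 1 general epithelial marker was higher and 2 were lower, and 3 ciliated markers were higher. Lower after normal mating were also 3 of 8 smooth muscle and pericyte and 5 of 8 T and NK cell markers, with 0 higher. Neutrophil markers were at least 2-fold higher for 9 of 9 genes after normal mating and 8 of 9 after vasectomized mating, with mean levels of -4.39, 0.04 and 0.34 on the not mated, vasectomized-mated and normal-mated arrays. Ltf, the exception after vasectomized mating, was high on all of these arrays (6.59, 5.86 and 7.81). Ovary and cumulus markers were higher for 5 of 7 and 6 of 7 genes, with mean levels of -5.03, -1.30 and -2.97 on the same arrays. The oviduct secretory marker Ovgp1 was high on all 3 arrays (8.07, 8.51 and 8.33), while Pax8 of the same list read -0.25, -4.01 and -1.17. The measured uterine gland markers did not move one way. The gland protease Prss28 read 5.80 without mating, -6.88 after vasectomized mating, which was not well above background, and -3.46 after normal mating, and Prss29 read 6.36, 0.32 and 1.82, but the gland factor Foxa2 read 1.57, 3.35 and 3.22. In pooled tissue, fewer cells of a type and less RNA per cell cannot be told apart, and the part of these shifts in the values below was not tested.

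After normal mating, guidance genes were more often lower than higher. Of 57 genes compared with the not mated array, 11 were lower by 2-fold or more and 3 were higher. Over all genes compared, 13.2% were lower and 9.77% higher. The median log2 ratio of the guidance genes was -0.35, against -0.05 over all genes. The 11 lower genes were Sema4g, Sema5a, Sema7a, Plxna2, Plxna3, Efnb3, Ephb1, Robo2, Robo4, Ntn1 and Ntn2l, and the 3 higher genes were Plxnb3, Epha5 and Ephb2. Sema3c and Nrp1 are not among the lower genes, though probes of theirs that were brighter without mating gave log2 ratios of -1.68 and -1.93. Ligands gave 6 of the lower genes and 0 of the higher ones among 33 compared, and receptors gave 5 and 3 among 24. With quantile normalization and with the normexp background correction, which narrows the ratios of dim probes, 3 of the 11 lower genes (Sema5a, Sema7a, Robo4) and 2 of the 3 higher genes (Plxnb3, Ephb2) stayed past 2-fold. Over all genes 35.1% of the lower and 70.3% of the higher ones stayed so. With normexp alone the split was 3 lower and 2 higher.

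After vasectomized mating, 18 of 57 guidance genes were lower by 2-fold or more than on the not mated array and 12 were higher. All genes gave 16.6% lower and 25.7% higher. The median guidance ratio was -0.35 and that of all genes 0.18. With spike-in scaling the counts became 52 lower and 0 higher, with medians of -3.08 for guidance genes and -2.62 for all genes. With normexp they were 10 lower and 12 higher, with medians of 0.047 for guidance genes and 0.50 for all genes. Between the matings, 12 of 56 guidance genes were at least 2-fold higher after normal than after vasectomized mating and 16 were lower. All genes gave 14.7% higher and 27.9% lower, with medians of 0.01 for guidance genes and -0.27 for all genes. With spike-in scaling that split became 43 higher and 0 lower, with medians of 2.16 for guidance genes and 1.94 for all genes. With normexp it was 6 higher and 14 lower, with medians of -0.41 for guidance genes and -0.49 for all genes.

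**Figure D1:**
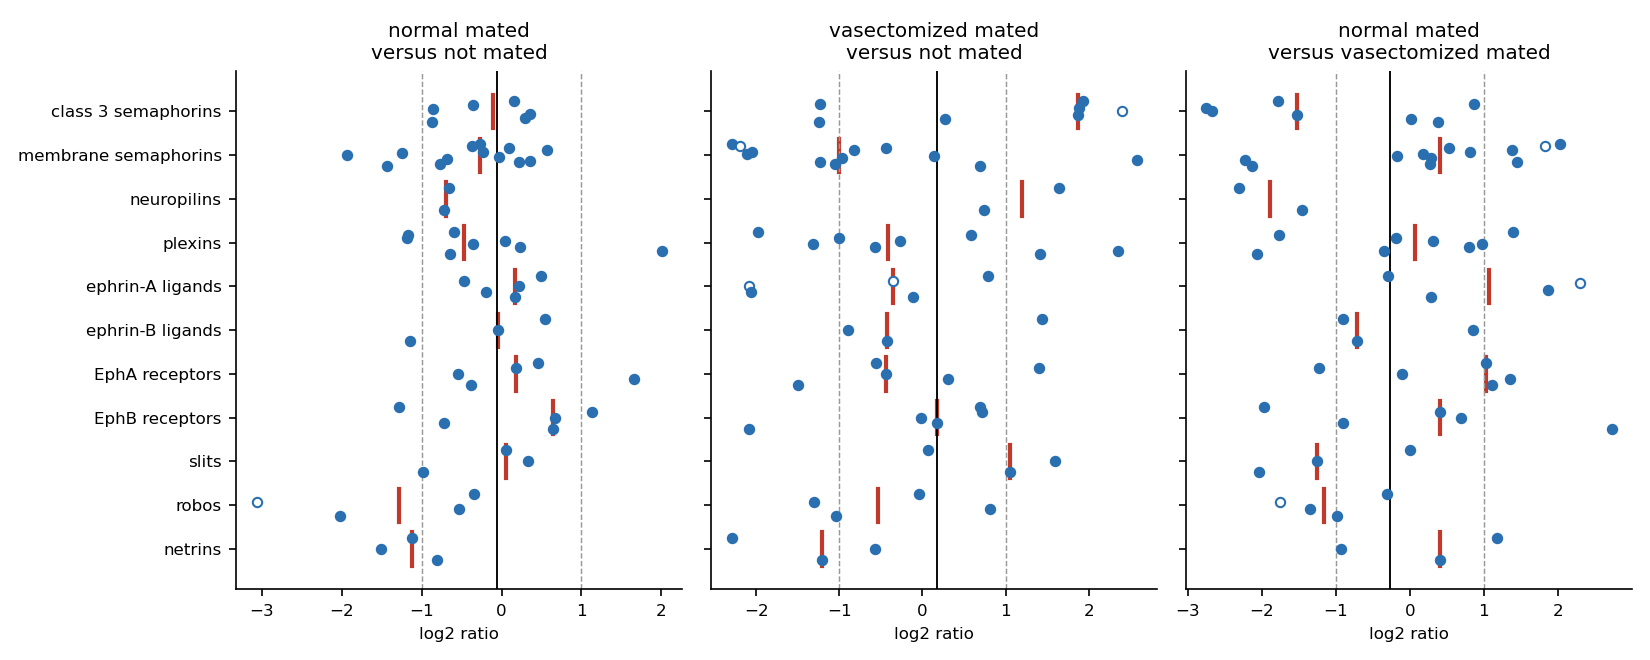
Log2 ratios of the guidance genes by class in the 3 comparisons, 1 point per gene, with open points for bounds, red bars for class medians, the black line for the median of all genes and dashed lines at 2-fold. Robos and netrins, with only 4 and 3 genes, lie lowest after normal mating (medians of -1.28 and -1.12), and class 3 semaphorins lie highest after vasectomized mating (median 1.88). Ntn5 is not plotted. After vasectomized mating spike-in scaling puts Sema3a, Sema3c and Sema3e below 0 and leaves no fold for Sema3d.

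Both matings were compared with the same not mated array, so a high or low reading on that array enters both. Of 56 genes compared in both, Plxnb3 was at least 2-fold higher in both, and Sema4g, Sema5a, Robo2, Robo4 and Ntn1 were at least 2-fold lower in both. Over all genes 5.70% were higher and 4.84% lower in both. With normexp neither ratio of Sema4g, Robo2 and Ntn1 stayed past 2-fold. Passing 2-fold in opposite directions was seen for 0 genes. Over all genes 0.34% were higher after normal and lower after vasectomized mating and 0.87% the reverse, so 0 lies near those shares. Past 2-fold after normal mating alone were 8 genes (14.3%, all genes 11.4%) and after vasectomized mating alone 23 (41.1%, all genes 29.8%), and 19 were within 2-fold in both (33.9%, all genes 47.1%).

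The promoters of Sema5a, Robo4, Robo2 and Plxnb3 are shown. Among the genes past 2-fold the same way after both matings relative to the 75th percentile, Sema4g and Ntn1 are left out. The promoter of Ntn5 is added, so that the genes with the most to follow below can be read beside the sequence at their starts. Each runs from 250 bases before to 50 bases after the annotated start, from RefSeq on build GRCm38.p6, 5′ to 3′ on the gene's own strand, with matches to the searched motifs in capitals.
Sema5a: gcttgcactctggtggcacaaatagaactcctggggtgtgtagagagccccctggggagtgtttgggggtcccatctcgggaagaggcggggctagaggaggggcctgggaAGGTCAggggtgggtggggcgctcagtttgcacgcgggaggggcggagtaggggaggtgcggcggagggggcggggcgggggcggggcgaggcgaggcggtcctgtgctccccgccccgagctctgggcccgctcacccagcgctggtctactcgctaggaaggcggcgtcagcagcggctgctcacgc
Robo4: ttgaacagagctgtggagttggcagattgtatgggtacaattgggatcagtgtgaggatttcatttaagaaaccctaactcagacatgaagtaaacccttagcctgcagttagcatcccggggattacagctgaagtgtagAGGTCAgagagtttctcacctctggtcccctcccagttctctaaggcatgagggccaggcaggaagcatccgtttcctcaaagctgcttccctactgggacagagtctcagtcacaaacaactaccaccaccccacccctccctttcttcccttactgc
Robo2: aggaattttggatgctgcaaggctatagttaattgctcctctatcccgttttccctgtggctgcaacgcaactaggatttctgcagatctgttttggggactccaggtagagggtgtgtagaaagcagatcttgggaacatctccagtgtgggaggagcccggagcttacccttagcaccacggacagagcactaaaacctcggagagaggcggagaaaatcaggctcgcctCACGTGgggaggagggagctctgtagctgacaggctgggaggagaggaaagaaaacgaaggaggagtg
Plxnb3: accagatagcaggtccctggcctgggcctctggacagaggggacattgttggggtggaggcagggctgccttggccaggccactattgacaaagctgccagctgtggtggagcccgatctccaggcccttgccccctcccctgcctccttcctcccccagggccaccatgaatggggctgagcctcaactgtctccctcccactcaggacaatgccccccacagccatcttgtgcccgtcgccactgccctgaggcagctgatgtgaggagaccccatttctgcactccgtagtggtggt
Ntn5: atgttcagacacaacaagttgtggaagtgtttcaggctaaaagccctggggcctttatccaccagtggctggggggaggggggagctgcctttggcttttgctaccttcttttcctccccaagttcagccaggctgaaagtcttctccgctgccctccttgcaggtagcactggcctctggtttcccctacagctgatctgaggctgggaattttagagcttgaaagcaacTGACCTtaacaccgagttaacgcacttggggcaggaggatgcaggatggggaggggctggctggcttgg

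The windows lie at chr15:32244563-32244862 on the plus strand for Sema5a, at chr9:37401722-37402021 on the plus strand for Robo4, at chr16:75447244-75447543 on the minus strand for the first listed start of Robo2, at chrX:73756853-73757152 on the plus strand for Plxnb3 and at chr7:45683772-45684071 on the plus strand for Ntn5. The 5 motifs searched on both strands were AP-1 (TGANTCA), the hypoxia response core (ACGTG), ETS (CCGGAA), the steroid receptor half-site shared by glucocorticoid and progesterone receptors (TGTTCT) and the oestrogen receptor half-site (AGGTCA). The oestrogen receptor half-site begins 139 bases before the start of Sema5a and 109 bases before that of Robo4, and on the opposite strand 19 bases before that of Ntn5. In the Robo2 window shown, the hypoxia response core matches on both strands of the same site, CACGTG, 18 bases before the start. None of the 5 motifs has its letters in the windows of listed starts 2 and 3 of Robo2, which are not shown, or in the Plxnb3 window. AGGTCA is in 16.3% and ACGTG in 19.6% of all 32851 promoter windows of this length. In 72 windows of 56 guidance genes, AGGTCA is in 11 and ACGTG in 13, while TGANTCA is in 3 (7.81% of all windows), CCGGAA in 6 (14.9%) and TGTTCT in 8 (19.0%). GC content ranges from 50.3% in the Robo4 window, with 2 CpG sites, to 71.3% in the Sema5a window, with 23. These matches describe letters in a window and say nothing of binding.

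Class 3 semaphorins, the secreted members that act mainly on plexins with neuropilins, split into 2 sets. After normal mating 0 of the 6 compared passed 2-fold on the probes chosen, with ratios from -0.87 to 0.36, though a second Sema3c probe gave -1.68. After vasectomized mating 4 of 7 were higher and 2 lower by 2-fold or more. Spike-in scaling turns the higher ratios below 0 for Sema3a, Sema3c and Sema3e and leaves no fold for Sema3d. Sema3a, which repels axons and restrains endothelial cells, read -3.41 (not mated), -1.48 (vasectomized-mated) and -3.26 (normal-mated). The vasectomized-mated reading alone was high, 3.82-fold above the not mated one, although a second probe gave a log2 ratio of only 0.74.

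Sema3e, which binds its plexin without a neuropilin and shapes vessels, followed the same order with -0.46, 1.41 and -0.11 on the not mated, vasectomized-mated and normal-mated arrays. It was 3.67-fold higher after vasectomized than without mating and 2.87-fold lower after normal than after vasectomized mating, while a second, dimmer probe gave a bound of -0.09 for the former. Sema3d did not clear background without mating (-6.23) and read -3.64 and -6.30 after vasectomized and normal mating, which makes it at least 5.30-fold higher after vasectomized mating. With spike-in scaling no fold remained for that comparison, and the Sema3d ratio between the matings went from -2.67 to -0.45 on the log2 scale. Sema3c, a cue for neural crest and vessel cells, read -1.34, 0.55 and -2.20. Its probes disagreed in sign after vasectomized mating, with log2 ratios of 1.89 and -1.01, but both were below 0 after normal mating, at -0.86 and -1.68. The second probe was brighter without mating, at -0.83, so the choice of the first rests on its vasectomized-mated reading.

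Sema3b and Sema3g made up the lower pair after vasectomized mating. Sema3b, a ligand with growth-restraining activity in epithelial tumours, read 0.93 (not mated), -0.30 (vasectomized-mated) and 0.57 (normal-mated), a 2.35-fold difference between the first and second. Sema3g, expressed mainly in vessels, read 1.91, 0.67 and 1.05 and was 2.37-fold lower after vasectomized and 1.82-fold lower after normal mating. Both mated arrays were thus below the not mated one for each of the pair. Sema3f, a ligand for Nrp2, stayed between -0.58 and -0.28 on its brightest probe, though a second probe gave -1.76 for vasectomized mating.

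Membrane semaphorins, which include transmembrane and lipid-anchored members, were lower where they passed 2-fold after normal mating, with 3 of 13 lower, 0 higher and a median of -0.27. Sema5a, a member with thrombospondin repeats and a reported ligand of Plxnb3, read 2.27 (not mated), 0.16 (vasectomized-mated) and 0.34 (normal-mated). Both mated arrays stood well below the not mated one, by 4.33-fold and 3.82-fold. A second Sema5a probe gave a near equal log2 ratio of -1.83 after normal mating but only -0.23 after vasectomized mating. The probes lie at chr15:32808219-32808278 and chr15:32801482-32801541 on mm7, the build of the array's own annotation.

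Sema7a, a lipid-anchored semaphorin that acts through integrins and Plxnc1 on leukocytes and neurons, read 0.74, 1.43 and -0.69 on the not mated, vasectomized-mated and normal-mated arrays. The normal-mated reading was the low one, 2.69-fold below the not mated and 4.36-fold below the vasectomized-mated array, and the latter difference becomes 0.09 on the log2 scale with spike-in scaling. Sema4g read -2.81, -4.86 and -4.05 and was 4.14-fold and 2.36-fold lower after vasectomized and normal mating. With normexp these Sema4g ratios shrank to 0.05 and -0.49.

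After vasectomized mating 6 of 12 membrane semaphorins were lower by 2-fold or more, 1 was higher, and the median was -1.01. Sema4a, which acts on T cells and on the retina, read 3.49, 1.19 and 3.22, so that the vasectomized-mated array alone was low, by 4.92-fold against the not mated and 4.07-fold against the normal-mated array. Sema6b, a transmembrane ligand of A-type plexins, showed the reverse with -2.09, 0.49 and -1.73, a 5.98-fold higher reading after vasectomized mating that becomes -0.15 on the log2 scale with spike-in scaling. The remaining lower members were Sema4b, with a bound of at least 4.59-fold, Sema6c at 2.35-fold and Sema6d at 2.07-fold, and none of these 3 kept 2-fold with normexp. A second Sema6d probe gave a log2 ratio of 0.25. Both Sema6c probes passed 2-fold after vasectomized mating, at -1.23 and -1.60, but after normal mating they gave 0.21 and -1.50. Sema4d, the ligand of Plxnb1, read -2.25, -3.07 and -1.69, and it was 2.61-fold higher after normal than after vasectomized mating, with its second probe giving at least 1.70 on the log2 scale and the brighter one 0.46 with normexp. Sema4c, Sema4f, Sema5b and Sema6a stayed within 2-fold of the not mated array wherever compared on their brightest probe, but other probes passed it. The Sema5b probes ran from -1.49 to -0.03 on the log2 scale after normal mating and from 0.14 to 2.25 after vasectomized mating. After vasectomized mating the Sema6a probes, bounds included, ran from -1.39 to 1.94, and a second Sema4c probe gave -1.37.

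**Figure D2:**
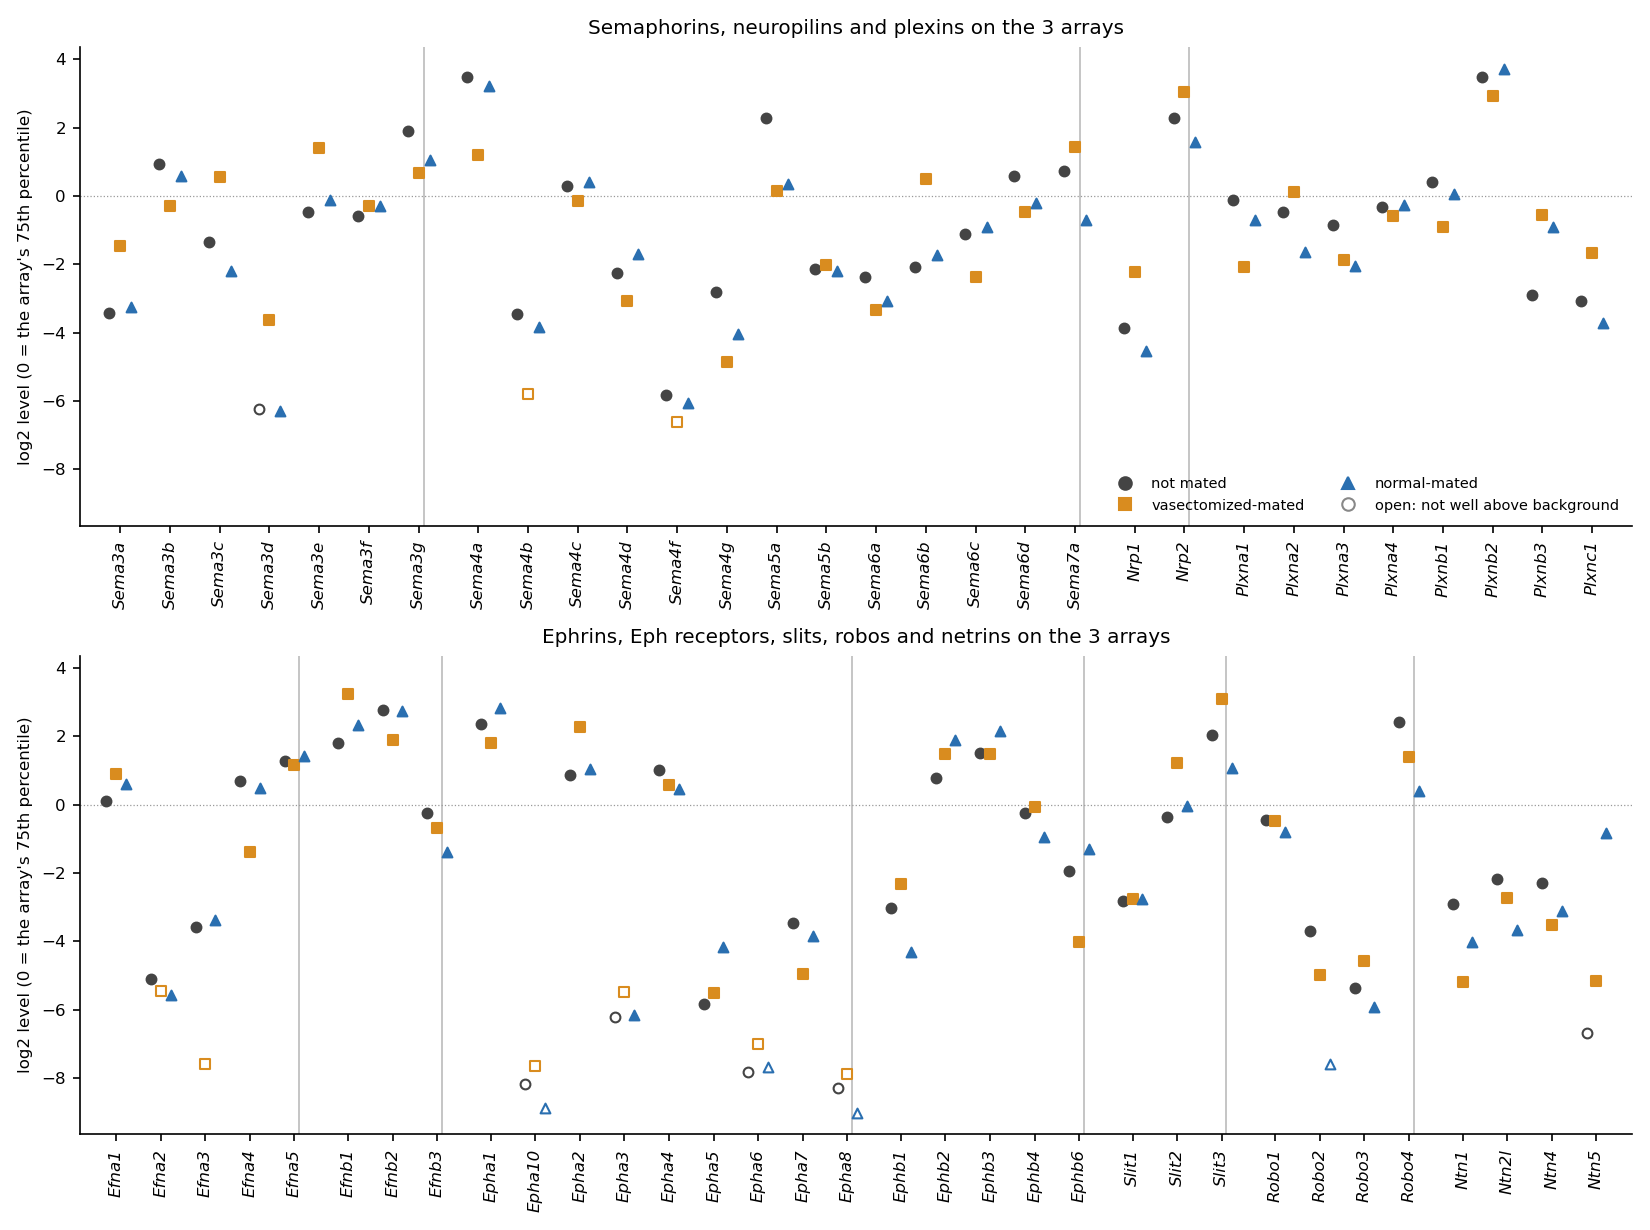
Log2 levels of each of the 62 genes and Ntn5 on the not mated (circle), vasectomized-mated (square) and normal-mated (triangle) arrays, relative to each array's 75th percentile, with open symbols where the probe was not well above background. For Sema5a both mated arrays lie far below the not mated one (0.16 and 0.34 against 2.27), and for Plxnb3 both lie far above it (-0.55 and -0.90 against -2.90), the former of which is turned to -0.37 by spike-in scaling.

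The neuropilins are co-receptors for class 3 semaphorins and for vascular endothelial growth factors. Nrp2, known from lymphatic vessels and veins, read 2.30 (not mated), 3.03 (vasectomized-mated) and 1.57 (normal-mated). It differed from the not mated array by under 2-fold in both matings and was 2.75-fold lower after normal than after vasectomized mating, which spike-in scaling turns to 0.75 on the log2 scale.

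Nrp1 has 3 probes, at chr8:126968711-126968770, chr8:127076975-127077034 and chr8:127111352-127111411 on mm7. The first comes from a cDNA clone and read -3.87, -2.22 and -4.53 on the not mated, vasectomized-mated and normal-mated arrays. It is the brightest by its mean over the 3 arrays, which rests on its vasectomized-mated reading. The last of the 3 probes was brighter without mating and read -2.60, -3.67 and -4.53. The first probe's log2 ratio was 1.65 after vasectomized mating, where the other probes gave a bound of -1.64 and a measured -1.07. After normal mating all 3 probes were below 0, at -0.66, -1.98 and -1.93. The Nrp1 probes therefore gave 1 direction after normal mating and opposite directions after vasectomized mating, and the mean over the probes was -0.35 for the latter.

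Plexins, the signalling receptors for semaphorins, held the gene with the highest ratio among counted members after normal mating. Plxnb3, a B-type plexin best known from glial cells and reported as a receptor for Sema5a, read -2.90 (not mated), -0.55 (vasectomized-mated) and -0.90 (normal-mated). Both mated arrays were above the not mated one, by 5.13-fold and 4.02-fold, while its reported ligand Sema5a was below it in both. The normal-mated difference held with spike-in scaling at 1.50 on the log2 scale and with normexp at 1.59, and the vasectomized-mated one fell to -0.37 with spike-ins. Its only probe lies at chrX:69158882-69158941 on mm7.

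A-type plexins, the usual partners of neuropilins, were lower where they passed 2-fold against the not mated array. Plxna2 read -0.46, 0.13 and -1.64 and was 2.26-fold lower after normal mating, with its 3 probes between -1.35 and -0.90, and 3.40-fold lower than after vasectomized mating. Plxna3 read -0.86, -1.86 and -2.05, 2.27-fold lower after normal mating and just short of 2-fold after vasectomized mating. The differences of Plxna2 and Plxna3 after normal mating came to -0.95 and -0.93 with normexp. Plxna1 read -0.11, -2.09 and -0.70 and was low on the vasectomized-mated array, by 3.94-fold against the not mated one. A second Plxna1 probe gave a log2 ratio of only -0.51 there. Plxna4 stayed within 2-fold throughout.

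Plxnb1, the Sema4d receptor, was 2.50-fold lower after vasectomized mating, with readings of 0.41, -0.92 and 0.06, while a second probe gave a log2 ratio of -0.69. Plxnb2, an epithelial plexin that binds Sema4c, read 3.49, 2.93 and 3.72 and stayed within 2-fold in all 3 comparisons on its brighter probe. A second Plxnb2 probe gave log2 ratios of -1.44 after vasectomized mating and 1.58 between the matings. Plxnc1, the Sema7a receptor, read -3.07, -1.66 and -3.72, so that it was 2.66-fold higher after vasectomized mating and 4.18-fold lower after normal than after vasectomized mating. Both of those Plxnc1 ratios change sign with spike-in scaling. Sema7a and Plxnc1 thus both had their highest reading on the vasectomized-mated array and their lowest on the normal-mated array.

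Among the ephrins, the lipid-anchored A-type ligands showed no 2-fold difference after normal mating, with 5 compared and ratios from -0.47 to 0.49. After vasectomized mating Efna4 was 4.18-fold lower, with readings of 0.68, -1.38 and 0.49 on the not mated, vasectomized-mated and normal-mated arrays. Efna3 read -3.58 and -3.36 on the not mated and normal-mated arrays and was not well above background on the vasectomized-mated one, at least 4.25-fold below the former and at least 4.93-fold below the latter. The vasectomized-mated array alone was low for both genes. Efna1, an inflammation-responsive ligand of Epha2, and Efna5 on its brighter probe stayed within 2-fold in all 3 comparisons. A second, dim Efna5 probe gave a bound of 1.35 on the log2 scale between the matings. The dim Efna2 read -5.10 and -5.57 on the not mated and normal-mated arrays.

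The transmembrane B-type ephrins were read on all 3 arrays. Efnb1, which takes part in sorting cells at boundaries, read 1.79, 3.23 and 2.33 and was 2.72-fold higher after vasectomized mating, which spike-in scaling turns to -1.28 on the log2 scale. Efnb2, the arterial ligand of Ephb4, read 2.78, 1.88 and 2.74 and stayed within 2-fold on its brighter probe. Its probes had opposite signs after vasectomized mating (-0.90 and 0.92), and the dimmer one gave -1.21 between the matings. Efnb3 was 2.21-fold lower after normal mating, with readings of -0.25, -0.68 and -1.39, and it came to -0.95 on the log2 scale with normexp.

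Of 9 EphA receptors, Epha6, Epha8 and Epha10 were well above background on no array and Epha3 on the normal-mated array alone, which left 5 compared. Epha2, an epithelial receptor of Efna1, read 0.87, 2.27 and 1.04 on the not mated, vasectomized-mated and normal-mated arrays. Its vasectomized-mated reading was the high one, 2.65-fold above the not mated array, with the sign changed by spike-in scaling. Epha1, another epithelial member, read 2.37, 1.81 and 2.83 and was just past 2-fold between the matings, 2.04-fold higher after normal mating. Epha5, a neuronal receptor, was 3.15-fold higher after normal mating from a low reading of -5.82 to -4.17, and it came to 0.67 on the log2 scale with normexp. Epha7 was 2.83-fold lower after vasectomized mating, which normexp turns to 0.41 on the log2 scale. Epha4, which binds ephrins of both types, stayed within 2-fold throughout on its brighter probe. A second Epha4 probe gave log2 ratios of -1.67 after vasectomized mating and 1.62 between the matings.

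EphB receptors bind the B-type ephrins. Ephb2 read 0.77 (not mated), 1.48 (vasectomized-mated) and 1.89 (normal-mated) and was 2.19-fold higher after normal mating. Both of its probes passed 2-fold there, at log2 ratios of 1.13 and 1.01, the only guidance gene with several compared probes that did so upward, but with spike-in scaling the brighter one came to 0.62. After vasectomized mating its probes gave 0.71 and a bound of -1.78. Ephb1 read -3.02, -2.33 and -4.30 and was 2.42-fold lower after normal than without mating, which came to -0.55 on the log2 scale with normexp. Ephb6, a member whose kinase is inactive, read -1.94, -4.02 and -1.29 and was low on the vasectomized-mated array alone, though its log2 ratio to the not mated array came to -0.52 with normexp. Ephb3 and Ephb4, the latter a vein marker, stayed within 2-fold in all 3 comparisons.

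**Figure D3:**
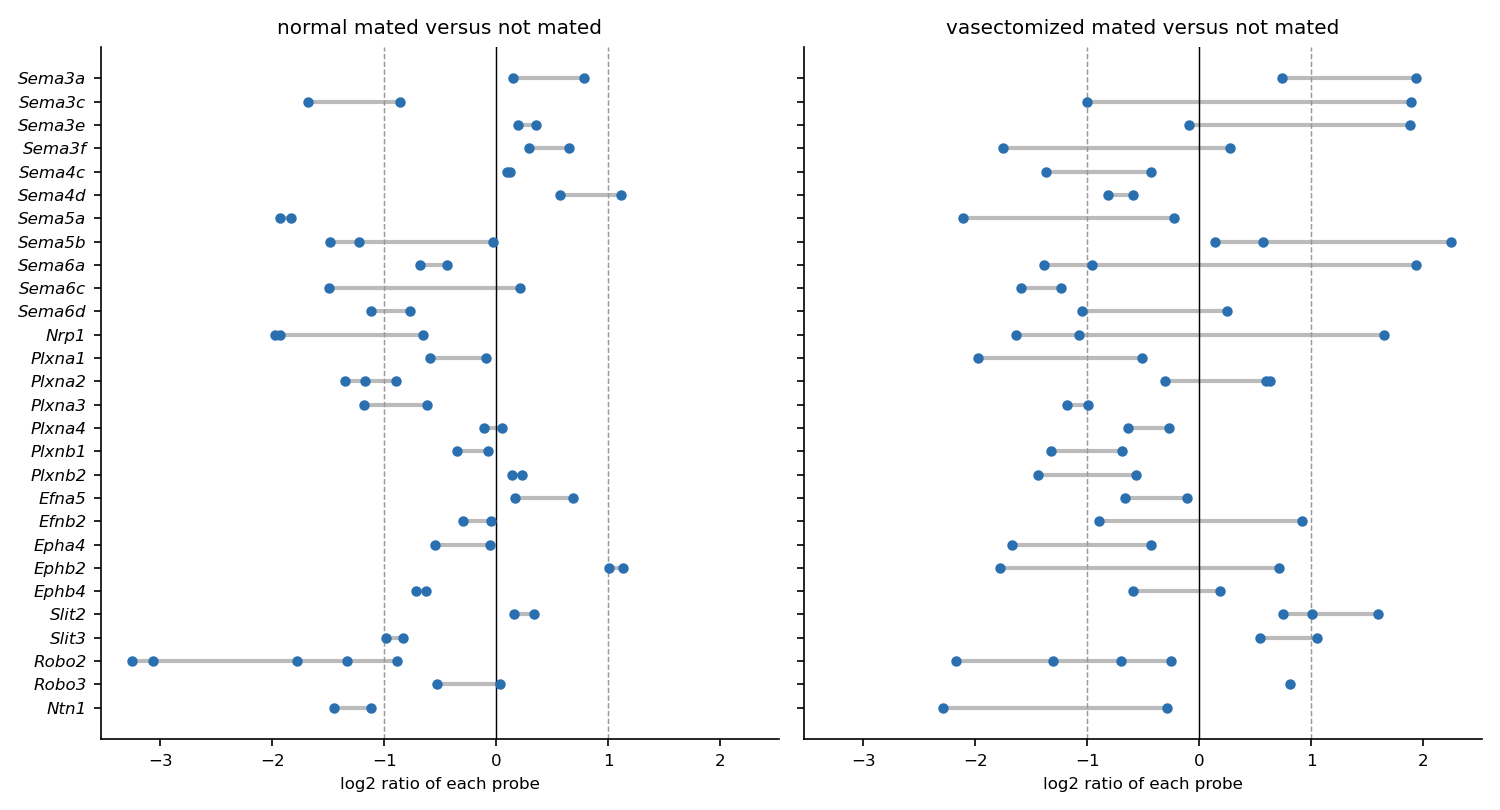
Log2 ratios of every compared probe of the guidance genes with several compared probes, bounds included, for normal mating (left) and vasectomized mating (right) against the not mated array, with a grey bar from the lowest to the highest probe. The bars are short on the left, where 4 of 28 genes have probes over 2-fold apart, and long on the right, where 15 of 27 do.

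Slits, the secreted ligands of the robos, showed no 2-fold difference after normal mating. Slit3, a ligand linked to stromal and vascular cells, read 2.05 (not mated), 3.10 (vasectomized-mated) and 1.07 (normal-mated), just short of 2-fold lower after normal mating at -0.98, with a second probe at -0.83. Its 2.07-fold higher reading after vasectomized mating came to 0.72 on the log2 scale with quantile normalization. Between the matings it was 4.09-fold lower after normal mating and both probes passed 2-fold, at -2.03 and -1.38, while spike-in scaling turned the former to 0.18. Slit2, which steers axons and leukocytes, read -0.36, 1.23 and -0.03 and was 3.02-fold higher after vasectomized mating, with its 3 compared probes from 0.74 to 1.60 and a sign changed by spike-in scaling. Slit1 read -2.81, -2.75 and -2.75, nearly level across the arrays.

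Robos held the lowest ratios of the families after normal mating. Robo4, a receptor of endothelial cells, read 2.43 (not mated), 1.39 (vasectomized-mated) and 0.41 (normal-mated). It was 4.07-fold lower after normal and 2.06-fold lower after vasectomized mating, and it kept that direction past 2-fold with quantile, normexp and spike-in scaling. The endothelial markers moved with it. All 10 were below 0 after normal mating, from -2.23 to -0.55 with a median of -1.66 against -2.02 for Robo4, among them Pecam1 at -2.23, Tie1 at -1.98 and Vwf at -1.89. After vasectomized mating the markers ran from -2.34 for Tek to 2.44 for Cdh5 with a median of -0.38, against -1.04 for Robo4. Their part in the Robo4 difference was not tested. The Robo4 probe lies at chr9:37342570-37342629 on mm7.

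**Figure D4:**
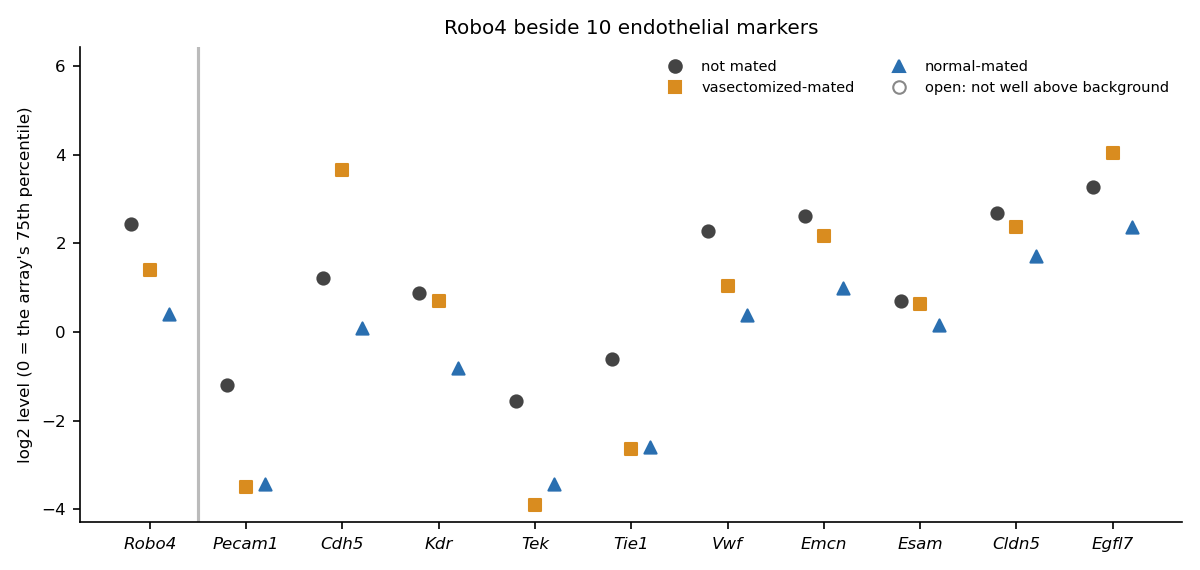
Log2 levels of Robo4 and of 10 endothelial markers on the not mated, vasectomized-mated and normal-mated arrays, relative to each array's 75th percentile, all well above background. On the normal-mated array Robo4 and all 10 markers are below the not mated array, while on the vasectomized-mated array Cdh5 and Egfl7 are above it, and only relative to the 75th percentile.

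Robo2, a receptor best known from axons and the developing kidney, has 6 probes, all on the minus strand between chr16:73889734-73889793 and chr16:74349160-74349219 on mm7. Of these, 5 were well above background without mating, 1 after vasectomized mating and 0 after normal mating. The brightest read -3.68 (not mated), -4.99 (vasectomized-mated) and -7.57 (normal-mated), the last not well above background. Robo2 thus cleared background without mating and on no probe after normal mating, at least 8.36-fold lower on the brightest one. The 5 compared probes gave bounds from -3.25 to -0.89 on the log2 scale. With normexp the bound of the brightest probe came to -0.75, since that correction narrows ratios of dim probes. After vasectomized mating the brightest probe's log2 ratio of -1.31 became 0.45 with normexp, so its direction there rests on the background correction.

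Robo1, the main slit receptor of many epithelia, read -0.45, -0.49 and -0.80 and stayed within 2-fold in all 3 comparisons. Robo3, a diverged member of axon crossing, read -5.37, -4.56 and -5.91 and was 2.53-fold lower after normal than after vasectomized mating, which came to 0.87 on the log2 scale with spike-in scaling.

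Netrins are laminin-related secreted cues. The 3 counted members were all below the not mated array after both matings, and 2 of them passed 2-fold in each. Ntn1, the classical axon attractant that also acts on epithelia and macrophages, read -2.90, -5.19 and -4.02 on the not mated, vasectomized-mated and normal-mated arrays. It was 4.89-fold lower after vasectomized and 2.17-fold lower after normal mating, and both probes passed 2-fold after normal mating, at -1.12 and -1.45, while the second gave -0.29 after vasectomized mating. Ntn2l read -2.16, -2.73 and -3.66 and was 2.83-fold lower after normal mating. Ntn4, a basement membrane netrin, read -2.31, -3.51 and -3.11 and was 2.31-fold lower after vasectomized mating. None of these netrin differences stayed past 2-fold with normexp, which gave -0.49 for Ntn1 and -0.83 for Ntn2l after normal mating, and -0.078 for Ntn1 and -0.16 for Ntn4 after vasectomized mating.

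Ntn5, a less studied member, was named for its difference between the matings, so its values are a description. It did not clear background without mating (-6.67) and read -5.15 on the vasectomized-mated and -0.84 on the normal-mated array. The normal-mated array was high, by 19.9-fold against the vasectomized-mated array and by at least 36.9-fold against the not mated one. With normexp the log2 ratios were 1.57 and at least 2.96, and with spike-in scaling 6.53 and at least 4.70. Its single probe, listed at chr7:41868678-41870311 on mm7, leaves no second probe to set beside it.

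**Figure D5:**
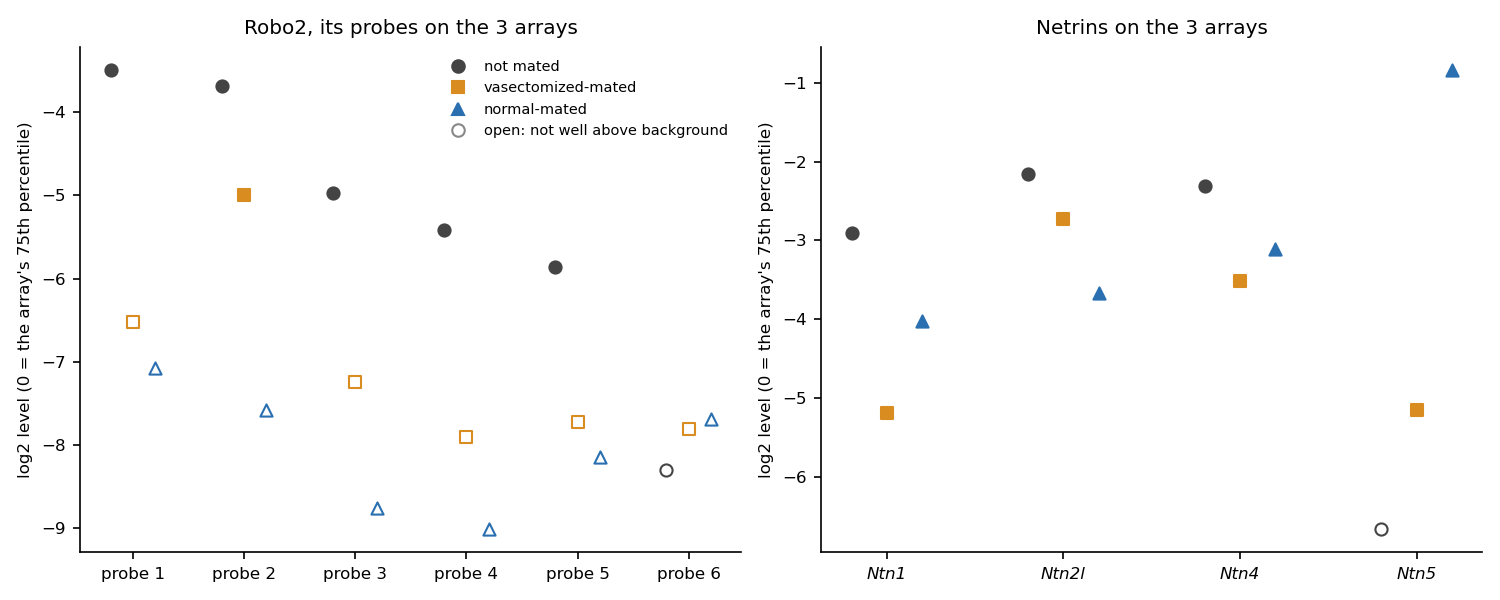
Log2 levels of the 6 Robo2 probes (left) and of the 4 netrins (right) on the not mated, vasectomized-mated and normal-mated arrays, relative to each array's 75th percentile, with open symbols where a probe was not well above background. For Robo2, 5 probes are above background without mating and 0 after normal mating, and for the netrins Ntn5 alone is highest on the normal-mated array, at -0.84.

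Other genes of these pathways were read from a list of 64 netrin receptors and related genes, adaptors, exchange factors, cytoskeletal effectors and other signalling genes. After normal mating 16 of 61 compared were lower by 2-fold or more, 1 was higher and the median was -0.33, beside the 13.2% lower and 9.77% higher of all genes. The 1 higher gene was Adam10, the protease that sheds ephrins, at a log2 ratio of 1.33. Semaphorin signalling gave 7 lower of 21, among them Fyn at -1.56, Dpysl3, an axon-growth mediator, at -1.37 and Mical2, an actin oxidase, at -1.78. Netrin receptors and related genes, among them Ntng1, Draxin, Rgma and Rgmb, gave 2 lower of 9, namely Dscam at -4.16 and a bound of -2.02 for Unc5c. Dcc and Unc5d were well above background on no array, whereas Neo1 read 1.25 without mating and 1.29 after normal mating. Slit and robo effectors gave 2 lower of 14, with Srgap3 at -1.64, and Eph and ephrin effectors 5 lower of 17, with Arhgef15, an exchange factor of endothelial cells, at -2.04 and Tns1 at -1.60. After vasectomized mating 14 of 61 were lower and 10 higher, beside 16.6% and 25.7% of all genes.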

How the data were processed

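Agilent Feature Extraction made the intensity values that the authors deposited: linear processed signals, per the file headers, from which background and a spatial trend had been removed array by array, with no scaling across arrays. The software's version is 9.5.3 in the submitters' processing notes and 10.5.1.1 in the file headers. The probe annotation is mm7, per the file headers. Log2 levels were then derived from these deposited intensities: log2 of the signal, minus the array's 75th percentile over non-control probes. Spots with outlier flags were left out and 0 spots were saturated. All 3 arrays lie on 1 slide and 1 scan.

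Each array has 45018 spots, 43379 of them not controls, and the shares of non-control spots well above background were 68% (not mated), 65.9% (vasectomized-mated) and 70.7% (normal-mated). The median SD of log2 signal between replicate spots of a probe was 0.0573, 0.0644 and 0.0543, which covers hybridisation and not animals. The number of arrays limits the precision.

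A gene takes its probe with the highest mean over the 3 arrays, with preference for probes that cleared background on at least 1 array. A bound is taken against the higher of the dim array's lowest signal well above background and the probe's own. Of the member probes, 75 matched RefSeq by accession and 40 by symbol. Every member is described under its class, with values on all arrays for those 2-fold the same way with the 75th percentile, quantile and normexp (offset 50) settings, for Ntn5 and for members near 2-fold; some others were added after their values were seen. The members, lists and motifs were chosen with earlier results of these data known. Alternatives were quantile, cyclic loess, spike-in and other percentile scaling, normexp, filters on dim probes and rules for probes of a gene. R 4.3.3 with limma 3.58.1 and version 1.17.8 of data.table, and Python 3.11.15 with numpy 2.4.6, pandas 2.3.3 and matplotlib 3.10.9, were used, and the counting steps were tested on simulated data.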

Additional observations from a re-analysis of the deposited data

How the results depend on the processing

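No paired analysis was possible because each group is 1 array of 1 pool, and for the same reason no array could be left out within a group. Of 74 ratios past 2-fold of guidance genes, Ntn5 included, 71 kept their direction past 2-fold with quantile normalization, 69 with cyclic loess, 73 with the percentile over probes well above background on all 3 arrays and 63 with the mean over the probes of a gene, which changed the sign of Nrp1 after vasectomized mating (-0.35). Normexp gave a value for 70, of which 46 stayed past 2-fold, 18 came within it and 6 changed sign. These became 0.050 for Sema4g, 0.41 for Epha7 and 0.45 for Robo2 after vasectomized mating, and -0.47 for Epha5, -0.44 for Epha7 and -0.42 for Ntn1 between the matings. Spike-in scaling changed 22 signs, for which the cause was not tested. For vasectomized against not mated these became -0.79 for Sema3a, -0.84 for Sema3c, -0.85 for Sema3e, -0.15 for Sema6b, -1.08 for Nrp1, -0.37 for Plxnb3, -1.31 for Plxnc1, -1.28 for Efnb1, -1.32 for Epha2, -1.13 for Slit2 and -1.68 for Slit3. For normal against vasectomized they became 0.43 for Sema3a, 0.70 for Sema3e, 0.091 for Sema7a, 0.75 for Nrp2, 0.45 for Plxna2, 0.15 for Plxnc1, 0.99 for Epha2, 0.25 for Ephb1, 0.96 for Slit2, 0.18 for Slit3 and 0.87 for Robo3. Spike-in counts were 24 lower for normal mating, 52 lower and 0 higher for vasectomized mating, and 43 higher and 0 lower between the matings. Normexp, which by its construction narrows the ratios of dim probes, gave 3 lower for normal mating, 10 lower for vasectomized mating and 6 higher between the matings. Counting every probe on its own, with more probes than genes, gave 5 higher and 24 lower of 91 for normal mating, 30 lower of 91 for vasectomized mating, and 19 higher and 26 lower of 86 between the matings. Medians for normal mating, vasectomized mating and between the matings were -0.21, -0.43 and 0.13 with quantile, -0.14, -0.26 and 0.14 with cyclic loess, -0.42, -0.49 and 0.074 with the percentile over probes well above background on all 3 arrays, -0.86, -3.08 and 2.16 with spike-ins, and -0.055, 0.047 and -0.41 with normexp. The vasectomized-mating median was -0.27 with both arrays required above background, -0.19 with no filter and -0.43 over every probe. The median between the matings was -0.11 with no filter and -0.24 with the mean over probes. Medians of all genes, in the same order of comparisons, were -0.04, 0.06 and -0.09 with quantile and 0.001, 0.10 and -0.07 with cyclic loess. They were -0.12, 0.04 and -0.20 with the percentile over probes well above background on all 3 arrays. Spike-ins gave -0.58, -2.62 and 1.94 for all genes, and normexp gave 0.06, 0.50 and -0.49. Adding Ntn5 through current symbols moved no count by over 1.5 times. Dim members such as Robo2, Epha5, Ntn1 and Sema4g are limited by signal over background, and 1 pool per group leaves animal variation unmeasured.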

Other observations

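Among the class 3 semaphorins, the 4 that were at least 2-fold higher after vasectomized mating relative to the 75th percentile, Sema3a, Sema3c, Sema3d and Sema3e, all lie on chromosome 5, with probes from 12066833 to 16741838 on mm7. Sema3b and Sema3f have their probes on chromosome 9 and Sema3g on chromosome 14, and none of these 3 was higher. This arrangement was noticed after the values were seen, and whether it is more than the neighbouring position of related genes was not tested. Spike-in scaling puts Sema3a, Sema3c and Sema3e below the not mated array and leaves no fold for Sema3d.

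Sema7a and its receptor Plxnc1, both known from leukocytes, read highest on the vasectomized-mated array relative to its 75th percentile. Sema7a was under 2-fold above the not mated array, at a log2 ratio of 0.70. With spike-in scaling Plxnc1 falls below the not mated array at -1.31. That scaling shifts all genes of an array alike and moved the median of all genes by -2.79 for vasectomized mating, so it lowers Sema7a and the markers below as well. Relative to the 75th percentile, the mean level of the macrophage and monocyte markers was also highest on the vasectomized-mated array, with 5 of 8 at least 2-fold higher than without mating. Their median log2 ratio was 1.61, with mean levels of -0.34, 1.06 and -0.48 on the not mated, vasectomized-mated and normal-mated arrays. Cd68 was instead highest on the normal-mated array (2.38 against -0.10 after vasectomized mating) and Csf1r on the not mated array (0.03 against -0.89). Their part in the Sema7a and Plxnc1 readings was not tested.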
